A study of Mus musculus with 21 samples.

Results

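The genes described here are 42 genes of S phase and mitosis, from the licensing and copying of DNA to the separation of chromosomes, in mouse mammary tumours. They were chosen by symbol and make up 42 of the 24028 genes in the deposited count table; each matched 1 row. RNA was sequenced from 21 tumours of WAP-Cre/PIK3CA-H1047R mice: 7 relapse tumours and 7 stable tumours from animals given BYL719, and 7 vehicle tumours from animals given DMSO. All 3 groups share the same transgenes. The promoter of Wap, a milk protein gene, drives Cre recombinase in mammary epithelium, where a mutant catalytic subunit of the lipid kinase PI3K-alpha (H1047R) is then made, and BYL719 (alpelisib) inhibits that subunit. The labels give no age, dose or time of collection. The design text calls one treated group responding and the labels call it relapse; the labels are followed here.

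A dividing cell first loads the MCM helicase onto its DNA in G1. Cyclin E and E2F factors then open S phase, in which DNA is copied and nucleotides are supplied. Genes of G2 and mitosis come on later, when CDK1 with cyclins A and B, the polo and aurora kinases, the spindle checkpoint and the anaphase promoting complex take the chromosomes through division. Transcripts of these genes are widely read as a measure of how many cells of a tumour are in cycle, and PI3K signalling is known to promote entry into S phase in mammary epithelium. In bulk tumour RNA, fewer cycling cells and less of each transcript per cell cannot be told apart.

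The promoters of these genes carry known elements, and 4 are printed as examples: Mcm6 for the helicase, Ccne1 for entry into S phase, and Cdk1 and Kif11 for mitosis. They are not typical of their phases in every motif: Cdk1 had the only E2F word among 20 promoters of G2 and mitosis genes. Each is the 250 bases before the transcription start in RefSeq (GRCm38.p6), read in the direction of the gene, and the capitals mark the motifs searched on both strands. These were the cell cycle genes homology region (CHR) TTTGAA, the CCAAT box, and the E2F words TTTCCCGC, TTTGGCGC, TTTCGCGC and TTTGCCGC.
Mcm6 (chr1:128359706-128359955, minus strand): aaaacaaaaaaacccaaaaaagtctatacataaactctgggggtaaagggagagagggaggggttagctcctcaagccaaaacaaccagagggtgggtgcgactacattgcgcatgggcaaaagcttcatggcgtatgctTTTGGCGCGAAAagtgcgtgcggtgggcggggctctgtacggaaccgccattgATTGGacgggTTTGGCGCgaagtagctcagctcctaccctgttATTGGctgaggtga
Ccne1 (chr7:38107491-38107740, minus strand): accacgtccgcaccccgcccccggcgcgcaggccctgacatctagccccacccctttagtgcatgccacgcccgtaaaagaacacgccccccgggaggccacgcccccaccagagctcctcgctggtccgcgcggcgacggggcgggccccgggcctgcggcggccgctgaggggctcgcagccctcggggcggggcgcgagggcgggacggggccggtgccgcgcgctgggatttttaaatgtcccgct
Cdk1 (chr10:69352913-69353162, minus strand): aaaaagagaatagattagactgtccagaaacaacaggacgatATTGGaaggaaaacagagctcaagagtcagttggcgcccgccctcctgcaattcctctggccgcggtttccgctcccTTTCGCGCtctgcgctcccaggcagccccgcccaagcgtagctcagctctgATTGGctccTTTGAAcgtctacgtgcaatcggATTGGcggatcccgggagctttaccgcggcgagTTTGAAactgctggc
Kif11 (chr19:37376132-37376381, plus strand): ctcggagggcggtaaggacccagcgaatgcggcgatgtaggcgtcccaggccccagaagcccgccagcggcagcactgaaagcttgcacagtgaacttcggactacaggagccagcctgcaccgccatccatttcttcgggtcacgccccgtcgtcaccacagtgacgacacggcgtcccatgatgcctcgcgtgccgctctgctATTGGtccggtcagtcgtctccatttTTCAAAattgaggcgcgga
The upstream E2F match of Mcm6 is 2 overlapping words, one on each strand. Cdk1 has a match to all 3 motifs and Kif11 has a CCAAT box and a CHR word, both on the strand opposite to the gene's, whereas none of the words lies in this window of Ccne1. A promoter was given for 34 of the 42 genes and for 27025 genes in all. In the window from 250 bases before to 50 after the start, the CHR word was present in 75% of 20 G2 and mitosis genes, 9.09% of 11 S phase genes and 18.1% of all genes. The CCAAT box was present in 90%, 72.7% and 37.9% of the same sets, and an E2F word in 5%, 54.5% and 2.32%. Of the 3 genes of G1/S control with a promoter, 0 had the CHR word, 33.3% the CCAAT box and 33.3% an E2F word. In the 250 bases before the start alone, the CHR share of the G2 and mitosis genes was 35%, against 16.3% of all genes. A match is a description of these letters and not a bound site.

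Total counts ranged from 13337848 in stable 3 to 24873844 in vehicle 2, and all 42 genes passed the filter on low counts, the lowest count of any of them in any tumour being 47. Levels are given as CPM, counts scaled to a common library total, with totals scaled by TMM factors. The tumours' titles hold a code that took 7 values among relapse, 4 among stable and 3 among vehicle tumours, and 2 codes occur in both treated groups; what a code stands for is not stated, so some tumours may come from 1 animal, and p-values reflect how tumours of a group vary. Luminal epithelial markers were present in every tumour, with 10 of 10 above 0 and a summed level of 2664 to 5264 CPM in relapse, 2350 to 6001 CPM in stable and 2759 to 5467 CPM in vehicle tumours. An earlier account of these data set vehicle 2, 6 and 7 apart as vehicle tumours high in Cnn1, and each comparison with vehicle is therefore given with and without them. Cnn1 is also a basal and myoepithelial marker here, so its high level in these 3 tumours follows from that choice. Markers that vary with Cnn1 are not independent of the choice either. In these 3 tumours 7 of 10 basal and myoepithelial markers (Acta2, Myh11, Cnn1, Mylk, Tagln, Actg2 and Oxtr) lay above all 18 other tumours, with a summed level of 10746 to 23723 CPM, against 928 to 2187 CPM in relapse, 279 to 1408 CPM in stable and 1200 to 4124 CPM in the other 4 vehicle tumours. These 7 include contractile genes of smooth muscle, and the other 3 did not set these tumours apart. The keratin Krt14 was lower there, at 85.03 to 342 CPM in vehicle 2, 6 and 7, against 771 to 2507 CPM in the other vehicle tumours. Krt5 and Trp63 were highest in vehicle 3, at 825 and 346 CPM. Trp63 was at 188 to 251 CPM in vehicle 2, 6 and 7, against 102 to 171 CPM in vehicle 1, 4 and 5. For Krt5 these ranges were 230 to 421 CPM and 191 to 420 CPM.

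Tumour by tumour, the 42 genes moved largely as 1 block, and the same 6 tumours stood at its ends. Vehicle 2, 6 and 7 lay below the other 4 vehicle tumours in 41 of 42 genes, a pattern held by 21.1% of the 15792 genes tested; the exception was Gins2, a subunit of the replicative helicase. Stable 1 was the highest of all 21 tumours in 35 of 42 genes, against 21.04% of all genes tested, and the 7 exceptions were Cdc6, Gins2, Ccne1, Ccne2, E2f1, E2f2 and Foxm1. Stable 5 was the lowest stable tumour in 41 genes, all but Ccne1, and relapse 1 was the lowest relapse tumour in 41 genes, all but E2f2; these orders held for 25.5% and 12.7% of all genes tested. Vehicle 2, 6 and 7 and stable 5 together lay below the other 17 tumours in 29 of the 42 genes, against 3.30% of all genes tested. Vehicle 6 was the lowest of all tumours in 29 genes, stable 5 in 8 and vehicle 7 in 5.

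**Figure D1:**
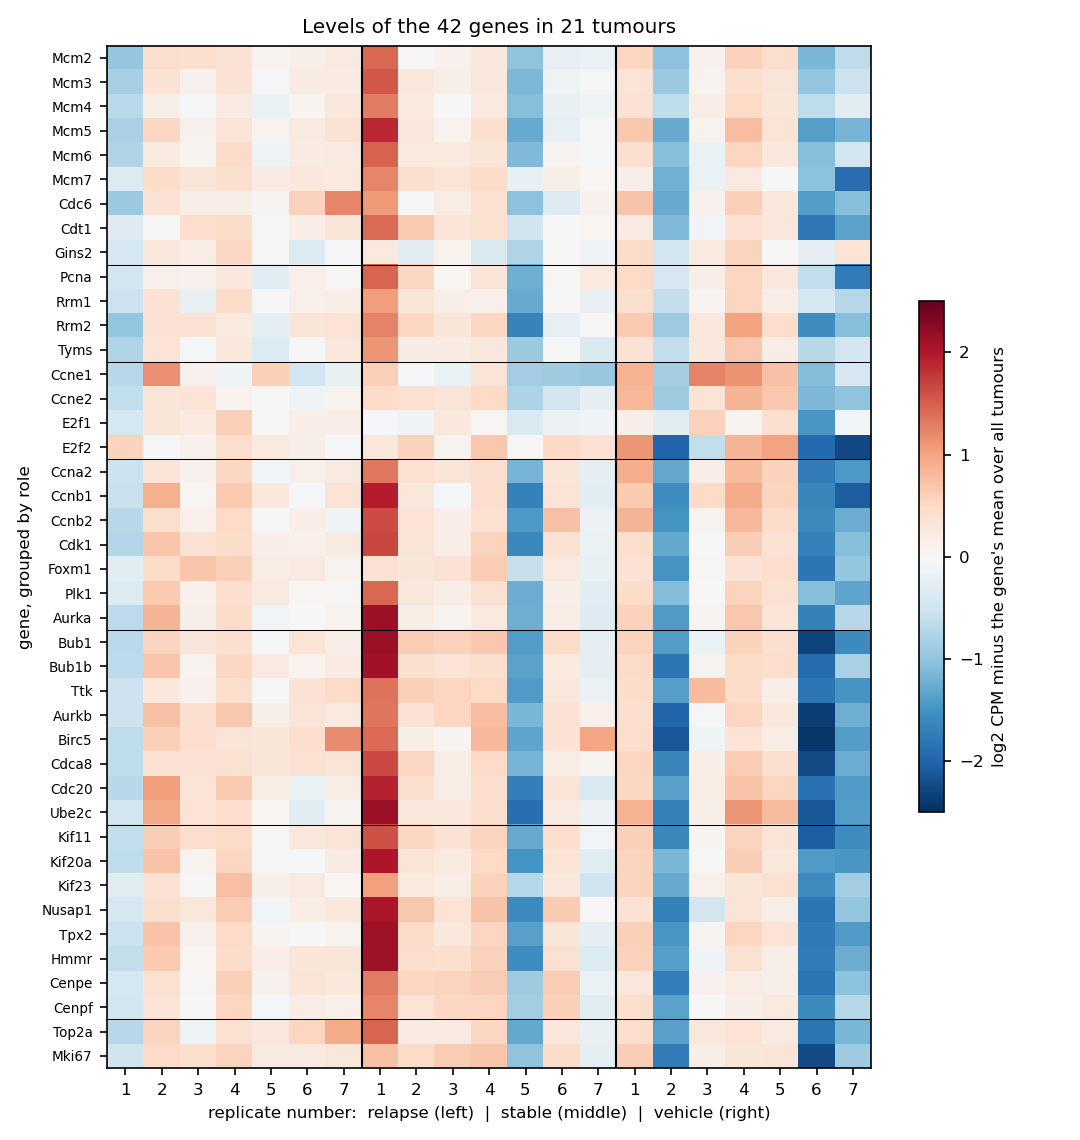
Level of each of the 42 genes (rows, grouped by role with thin lines between roles) in each tumour (columns, relapse, stable and vehicle from left to right), as log2 CPM minus the gene's mean over all tumours. The red column is stable 1 and the darkest blue columns are vehicle 2, 6 and 7 and stable 5; Gins2, E2f1 and E2f2 break the block in single tumours.

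The spread of the genes differed between groups in the same way. The median over the 42 genes of the standard deviation of log2 CPM was 0.39 in relapse, 0.79 in stable and 0.94 in vehicle tumours, beside 0.30, 0.44 and 0.43 over all genes tested. Without vehicle 2, 6 and 7 the vehicle median was 0.24 for the 42 genes and 0.24 for all genes, and without stable 1 and 5 the stable median was 0.27 and 0.22. These tumours were left out after their levels were known, so the smaller spread follows in part from the choice.

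Other cell types moved with several of these tumours. Stable 1 was the lowest tumour in 6 of 10 basal and myoepithelial markers and in 5 of 6 endothelial markers. Its summed basal level was 279 CPM and its summed endothelial level 102 CPM, both the lowest of all tumours. Of the basal list, Actg2 went the other way: at 50.8 CPM in stable 1, it was above every tumour except vehicle 2, 6 and 7. Luminal markers were split in stable 1. It was the highest tumour in 3 of 10, Krt8, Krt18 and Cldn3, but the lowest in 1, the keratin Krt19, at 44.8 CPM. Relapse 1 had the highest summed skeletal muscle level, 7065 CPM, and stable 5 had the highest of its group, 4074 CPM, with a summed fibroblast level of 8557 CPM. Muscle level and the 42 genes did not move together throughout. Relapse 2 had the next highest muscle level, 4551 CPM, but lay above the relapse median in 39 of the 42 genes. Relapse 4, with the lowest muscle level, 188 CPM, lay above that median in 36. Skeletal muscle markers summed to 188 to 7065 CPM in relapse, 216 to 4074 CPM in stable and 211 to 537 CPM in vehicle tumours. Neutrophil markers summed to 15.4 to 22.8 CPM in vehicle 2, 6 and 7, against 156 to 447 CPM in the other vehicle tumours. Of these markers, 2 of 7 (S100a8 and Mmp9) lay below all 18 other tumours. Fibroblast markers summed to 3982 to 9096 CPM in vehicle 2, 6 and 7, against 1018 to 2605 CPM in the other vehicle tumours. Only 1 of 10, Dcn, lay above all 18 other tumours. Col1a1 was at 346 and 486 CPM in vehicle 6 and 7, below vehicle 3 at 841 CPM. Squamous markers summed to 8.92 to 204 CPM in vehicle 2, 6 and 7, against 595 to 2613 CPM in the other vehicle tumours, and to 33.9 CPM in stable 1, the lowest of its group. Endothelial markers summed to 182 to 415 CPM in vehicle 2, 6 and 7, against 120 to 160 CPM in the other vehicle tumours. The part of other cells in the levels of the 42 genes was not tested.

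A score for each tumour, the mean over genes of log2 CPM minus each gene's mean over all tumours, sums up the block. Over the 42 genes it was 0.14 ± 0.35 in relapse, 0.19 ± 0.74 in stable and -0.33 ± 0.92 in vehicle tumours (mean ± SD, n = 7 each), and 0.39 ± 0.20 in the 4 vehicle tumours other than 2, 6 and 7. The single tumours at the ends were stable 1 at 1.38 and vehicle 6 at -1.53, followed at the low end by vehicle 2 at -1.26, stable 5 at -1.12 and vehicle 7 at -1.07. Relapse 1, the lowest relapse tumour, stood at -0.56, and the other 6 relapse tumours lay between 0.07 and 0.48. The 3 groups overlapped, and all relapse tumours lay inside the range of stable tumours.

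**Figure D2:**
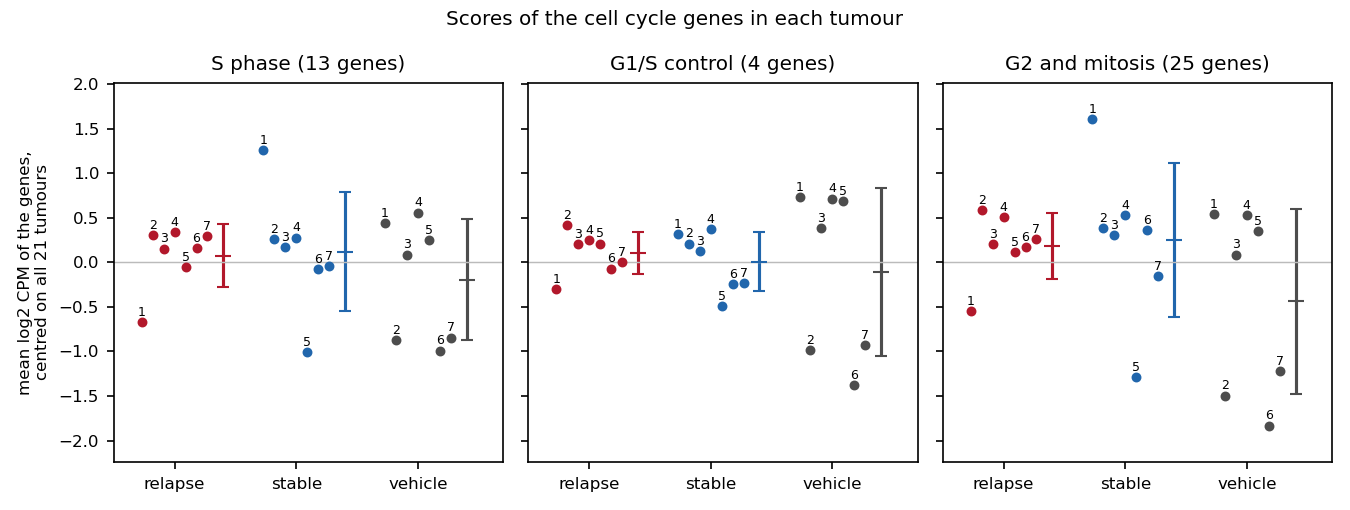
Score of the S phase, G1/S control and G2 and mitosis genes in each tumour (points, numbered by replicate) with the mean and SD of each group of 7 at the right of its points. The vehicle points fall into 4 high and 3 low tumours in each panel, and stable 1 stands highest for S phase at 1.26 and for mitosis at 1.60 but not for G1/S control, where it is at 0.32.

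Vehicle 2, 6 and 7 and stable 5 were lower in mitosis genes than in S phase genes, and relapse 1 was not. The score of the 25 G2 and mitosis genes minus that of the 13 S phase genes was -0.84 in vehicle 6, -0.62 in vehicle 2, -0.37 in vehicle 7 and -0.28 in stable 5. In stable 7 it was -0.11, and in the other 16 tumours it lay between -0.03 in relapse 7 and 0.44 in stable 6. Relapse 1 was among these 16, at 0.12. Stable 6 stood out the other way: its mitosis score was 0.36 and its S phase score -0.08. By group the difference was 0.11 ± 0.11 in relapse, 0.13 ± 0.25 in stable and -0.24 ± 0.38 in vehicle tumours (mean ± SD, n = 7 each), and 0.04 ± 0.07 in the 4 other vehicle tumours.

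**Figure D3:**
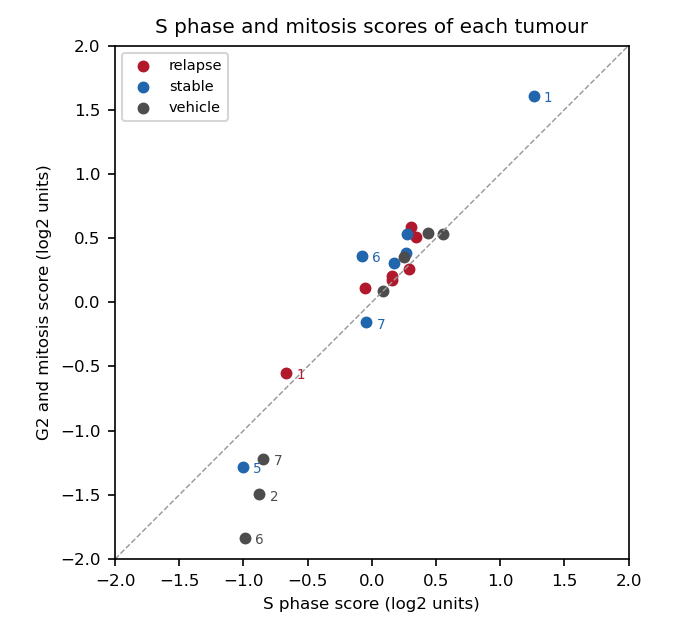
Mitosis score against S phase score of each tumour, both in log2 units, with relapse, stable and vehicle tumours in colour, the line of equal scores dashed, and replicate numbers on tumours away from the middle. Vehicle 2, 6 and 7 and stable 5 lie below the line at the low end, and stable 6 lies above it.

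The licensing and helicase genes were 9 of the 13 S phase genes: Mcm2 to Mcm7, the loaders Cdc6 and Cdt1, and the helicase subunit Gins2. Mcm2, one of the 6 subunits of the helicase ring, had a lowest, median and highest level of 18.2, 42.2 and 48.6 CPM in relapse, 17.8, 36.7 and 96.3 CPM in stable and 16.3, 38.5 and 53.4 CPM in vehicle tumours. Mcm5, another subunit, had 18.6, 38.1 and 46.5 CPM in relapse, 13.7, 34.6 and 121 CPM in stable and 12.6, 34.7 and 55.5 CPM in vehicle tumours. In both genes the medians of the groups were close together and the extremes came from stable 1 at the top and vehicle 6 at the bottom. Mcm7 (chr5:138164583-138172111) differed from them: it had 45.7, 69.1 and 79.8 CPM in relapse, 50.4, 73.1 and 134 CPM in stable and 15.3, 51.2 and 68.1 CPM in vehicle tumours. For Mcm7, 6 of 7 relapse and 6 of 7 stable tumours lay above the vehicle median, and vehicle 7 was the lowest of all, although the groups overlapped. Cdt1, which loads the helicase and is kept in check by geminin, had 9.02, 12.7 and 15.5 CPM in relapse, 7.99, 14.2 and 30.4 CPM in stable and 3.27, 10.7 and 14.5 CPM in vehicle tumours. Gins2 was the only one of the 42 in which vehicle 2, 6 and 7 were not all the lowest vehicle tumours: vehicle 7 had 8.52 CPM and vehicle 5 had 6.74 CPM.

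Of the genes of DNA synthesis, Pcna encodes the sliding clamp of the polymerases and Rrm1 and Rrm2 the subunits of ribonucleotide reductase, and Tyms makes thymidylate. Pcna had a lowest, median and highest level of 33.2, 48.8 and 55.4 CPM in relapse, 19.3, 53.6 and 124 CPM in stable and 13.6, 50.2 and 66.0 CPM in vehicle tumours. Rrm2 had 14.4, 34.7 and 36.2 CPM in relapse, 8.83, 34.6 and 66.3 CPM in stable and 9.61, 33.7 and 56.3 CPM in vehicle tumours. The group medians of both genes lay within the range of each group, and relapse tumours were the least spread.

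The 4 genes of G1/S control open S phase. Ccne1, cyclin E1, which with CDK2 drives entry into S phase, had a lowest, median and highest level of 3.85, 5.84 and 13.8 CPM in relapse, 3.23, 5.53 and 9.38 CPM in stable and 2.94, 10.3 and 14.8 CPM in vehicle tumours. Relapse 2, at 13.8 CPM, lay among vehicle 1, 3, 4 and 5, at 10.3 to 14.8 CPM, whereas the other 6 relapse tumours and all 7 stable tumours lay below these 4. E2f1, an activating E2F factor, had 4.42, 6.76 and 9.03 CPM in relapse, 4.58, 5.65 and 7.18 CPM in stable and 2.19, 6.31 and 8.99 CPM in vehicle tumours, so that the groups overlapped almost entirely. Ccne2 and E2f2 are described as well, chosen after their values were seen. Ccne2, cyclin E2, had 7.24, 11.9 and 14.1 CPM in relapse, 6.54, 14.01 and 15.8 CPM in stable and 5.13, 14.1 and 19.9 CPM in vehicle tumours. E2f2, a close relative of E2f1, lay at 15.05 to 22.7 CPM in relapse and 15.8 to 24.8 CPM in stable tumours, against 27.8 to 33.3 CPM in vehicle 1, 4 and 5 and 3.25 to 10.1 CPM in vehicle 2, 3, 6 and 7. All treated tumours thus lay between the high and the low vehicle tumours.

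**Figure D4:**
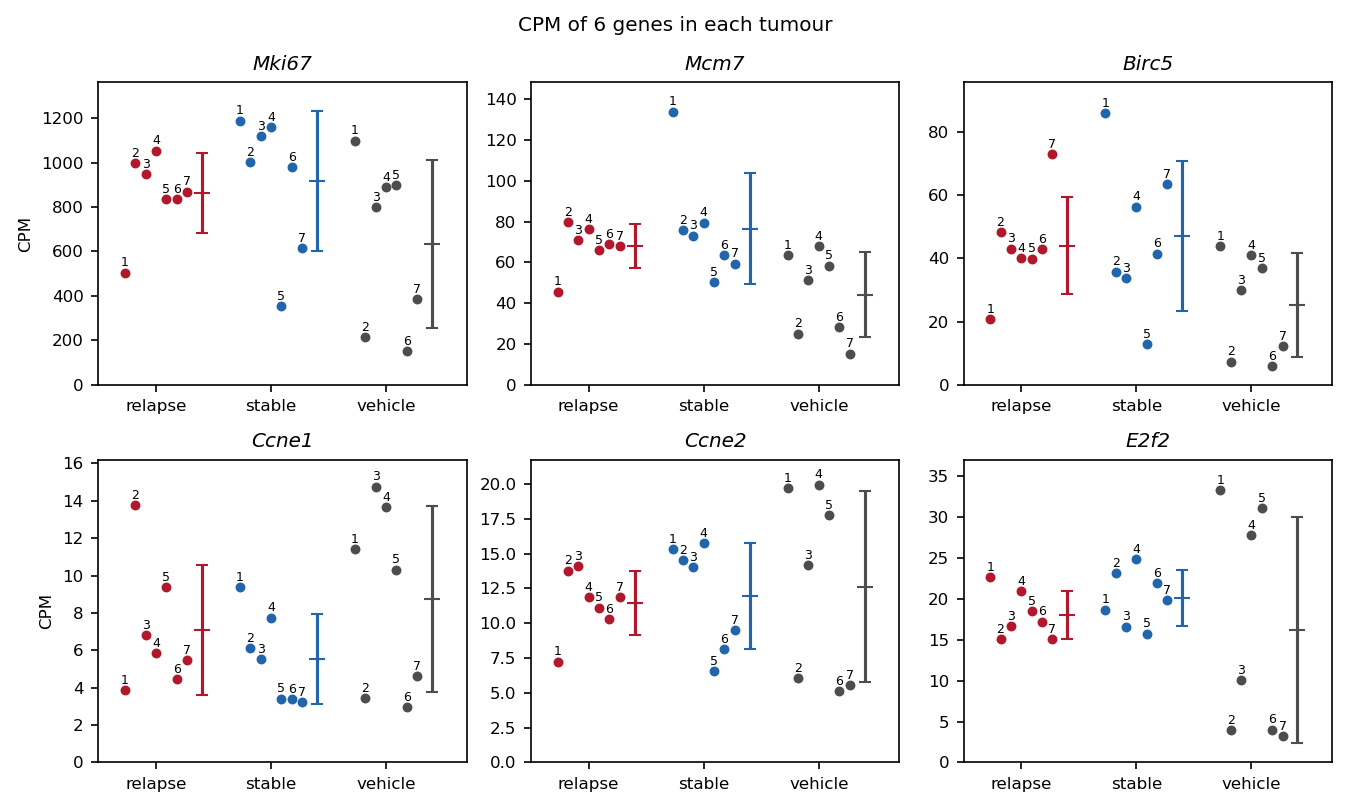
CPM of 6 genes in each tumour (points, numbered by replicate) with the mean and SD of each group of 7; the vertical axes start at 0 and differ between genes. Mki67, Mcm7 and Birc5 show the 3 low vehicle tumours and stable 5 as the lowest stable tumour, in E2f2 all treated tumours lie between the high and the low vehicle tumours, and in Ccne1 relapse 2 lies among the high vehicle tumours.

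Among the G2/M kinases, cyclins and FOXM1, the same tumours stood at the ends. Ccnb1, cyclin B1, had a lowest, median and highest level of 13.2, 23.5 and 36.3 CPM in relapse, 6.09, 23.6 and 75.9 CPM in stable and 4.69, 27.3 and 37.4 CPM in vehicle tumours. Cdk1, the kinase that cyclin B activates for entry into mitosis, had 14.6, 28.4 and 39.3 CPM in relapse, 7.99, 30.6 and 77.3 CPM in stable and 7.51, 24.1 and 37.3 CPM in vehicle tumours. Plk1, a kinase of spindle assembly and mitotic entry, had 16.4, 22.8 and 33.1 CPM in relapse, 8.89, 23.6 and 56.6 CPM in stable and 8.41, 20.7 and 30.7 CPM in vehicle tumours. In all of these stable 1 was far above the next tumour, and stable 5 and vehicle 2, 6 and 7 were the 4 lowest tumours. Foxm1, a transcription factor of mitosis genes, was less spread among stable tumours. It had 13.9, 19.8 and 27.2 CPM in relapse, 11.3, 20.7 and 26.0 CPM in stable and 4.81, 17.3 and 22.5 CPM in vehicle tumours. Stable 1, at 21.7 CPM, was not the highest tumour for Foxm1.

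The checkpoint, chromosomal passenger and anaphase genes had the lowest score of any role in any tumour, -2.11 in vehicle 6. Aurkb, the kinase of the passenger complex, had a lowest, median and highest level of 7.75, 14.1 and 18.6 CPM in relapse, 5.09, 14.4 and 28.4 CPM in stable and 2.19, 10.8 and 16.3 CPM in vehicle tumours. Birc5, survivin, a subunit of the same complex, had 20.8, 42.8 and 72.8 CPM in relapse, 12.97, 41.5 and 85.9 CPM in stable and 5.97, 30.0 and 43.8 CPM in vehicle tumours. Bub1, a kinase of the spindle checkpoint, had 14.9, 29.4 and 35.1 CPM in relapse, 9.05, 35.6 and 107 CPM in stable and 4.76, 21.2 and 35.3 CPM in vehicle tumours. For Aurkb and Birc5, 6 of 7 tumours in each treated group lay above the vehicle median, the exceptions being relapse 1 and stable 5. Birc5 was also high in relapse 7, at 72.8 CPM, and in stable 7, at 63.4 CPM, where Aurkb, at 13.3 and 12.2 CPM, was below the median of its group.

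Spindle and kinetochore genes had the highest median fold change of any role between stable and vehicle tumours. Nusap1, which bundles spindle microtubules, had a lowest, median and highest level of 26.9, 42.8 and 55.7 CPM in relapse, 11.8, 56.6 and 148 CPM in stable and 10.1, 26.2 and 46.2 CPM in vehicle tumours. Tpx2, the activator of aurora A on the spindle, had 40.0, 62.2 and 94.9 CPM in relapse, 22.9, 72.1 and 255 CPM in stable and 17.2, 60.8 and 88.4 CPM in vehicle tumours. Cenpe, a kinesin of the kinetochore, had 93.9, 153 and 191 CPM in relapse, 68.7, 185 and 310 CPM in stable and 35.6, 136 and 155 CPM in vehicle tumours. All 7 relapse tumours lay above the vehicle median for Nusap1, and 5 of 7 stable tumours lay above the highest vehicle tumour for Cenpe, but the groups overlapped in all of these genes.

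Of the genes of chromosome structure, Top2a encodes the topoisomerase that untangles sister chromatids and Mki67 encodes Ki-67, which coats mitotic chromosomes and is the usual stain for cycling cells. Top2a had a lowest, median and highest level of 163, 343 and 503 CPM in relapse, 108, 305 and 725 CPM in stable and 74.4, 308 and 359 CPM in vehicle tumours. Mki67 (chr7:135689784-135716450) had 505, 870 and 1054 CPM in relapse, 354, 1000.4 and 1189 CPM in stable and 151, 798 and 1098 CPM in vehicle tumours. Its range in the 4 vehicle tumours other than 2, 6 and 7, 798 to 1098 CPM, held 6 of 7 relapse tumours. Per kilobase of the gene length in the deposited table, Mki67 and Top2a were also the most abundant of the 42, at a mean over tumours of 79.9 and 54.1 CPM per kb, followed by Rrm1 at 40.4 and Pcna at 39.4 CPM per kb. The least abundant per kilobase were Cdc6 at 2.24 and E2f1 at 2.01 CPM per kb.

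Relapse against vehicle asks whether tumours labelled as relapsed under BYL719 carried more or less of these transcripts than tumours given DMSO. Most genes had a higher fitted level in relapse tumours, most of all Birc5 and Mcm7, but 0 of 42 passed the test. In the quasi-likelihood F test of edgeR with Benjamini-Hochberg adjustment over 15792 genes, 11.2% of all genes were called at an adjusted p under 0.05. At an unadjusted p under 0.05, 1 of the 42 (Mcm7) passed, against 27.5% of all genes. DESeq2 called 0 of the 42, against 16.4% of all genes, and passed 1 without adjustment, against 29.8%. Limma voom called 0, against 8.14%, and passed 4 without adjustment, against 26%. The fitted log2 fold changes were positive in 37 of 42 genes with a median of 0.30, beside -0.02 over all genes tested. Mcm7 had a log2 fold change of 0.62 ± 0.28 (SE, edgeR adjusted p = 0.151), Birc5 of 0.80 ± 0.43 (adjusted p = 0.241), Foxm1 of 0.51 ± 0.30 (adjusted p = 0.285) and Cenpe of 0.53 ± 0.34 (adjusted p = 0.321). Mki67 had 864 ± 179 CPM in relapse and 634 ± 376 CPM in vehicle tumours (mean ± SD, n = 7 each), a log2 fold change of 0.45 with a 95% interval of -0.31 to 1.20. At the other end were Ccne1 at -0.30 ± 0.38 (adjusted p = 0.658) and Ccne2 at -0.14 ± 0.31 (adjusted p = 0.818). By role the median was 0.49 in chromosome structure, 0.40 in spindle, 0.37 in checkpoint, 0.25 in G2/M kinase, 0.18 in helicase, 0.03 in DNA synthesis and 0.01 in G1/S control genes. The 95% interval lay within a 2-fold change in both directions for 15 of 42 genes and reached beyond 2-fold upward for 26. In 0 of 42 genes were the groups free of overlap, against 1.53% of all genes higher and 1.48% lower. The median moved to 0.20 without relapse 2, 0.18 without vehicle 2, 0.16 without vehicle 6 and 0.16 without vehicle 7.

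Stable against vehicle asks the same of tumours labelled as stable under the drug. Here too fitted levels were mostly higher in the treated tumours, with the highest fold changes in Nusap1 and Bub1 and the lowest p in Mcm7, and 0 of 42 genes passed in edgeR, against 15.1% of all genes. At an unadjusted p under 0.05, 5 passed (Mcm7, Cdt1, Nusap1, Cenpe and Cenpf, the last a kinetochore protein), against 31.1% of all genes. DESeq2 called 2 (Mcm7 and Nusap1), against 20.6% of all genes, and limma voom, in which the title code was a random effect, called 1 (Mcm7), against 11.2%. Without adjustment DESeq2 passed 8 of the 42, against 33.5% of all genes, and voom 9, against 28.6%. The log2 fold changes were positive in 38 of 42 genes with a median of 0.46, beside -0.0048 over all genes tested. Mcm7 had 76.5 ± 27.3 CPM in stable and 44.3 ± 21.02 CPM in vehicle tumours (mean ± SD, n = 7 each), a log2 fold change of 0.79 ± 0.28 (edgeR adjusted p = 0.0584, and 0.029 to 0.330 over the alternatives). Nusap1 had a log2 fold change of 1.08 ± 0.41 (adjusted p = 0.0816, and 0.0286 to 0.413 over the alternatives), Cenpe of 0.81 ± 0.34 (adjusted p = 0.105) and Cdt1 of 0.73 ± 0.32 (adjusted p = 0.127). Ccne1 went the other way, at -0.66 ± 0.39 (adjusted p = 0.252), and Gins2 was at -0.31 ± 0.19 (adjusted p = 0.279). By role the median was 0.74 in spindle, 0.68 in checkpoint, 0.54 in chromosome structure, 0.43 in G2/M kinase, 0.41 in helicase, 0.19 in DNA synthesis and -0.08 in G1/S control genes. The interval lay within 2-fold for 7 of 42 genes and reached beyond 2-fold upward for 34. Again 0 of 42 genes were free of overlap, against 1.56% of all genes higher and 1.3% lower. Without stable 1 the median was 0.16. Mcm7 passed without stable 5 (adjusted p = 0.0455), vehicle 1 (0.0397), vehicle 4 (0.032) or vehicle 5 (0.0494), and Nusap1 without stable 5 (0.0286).

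**Figure D5:**
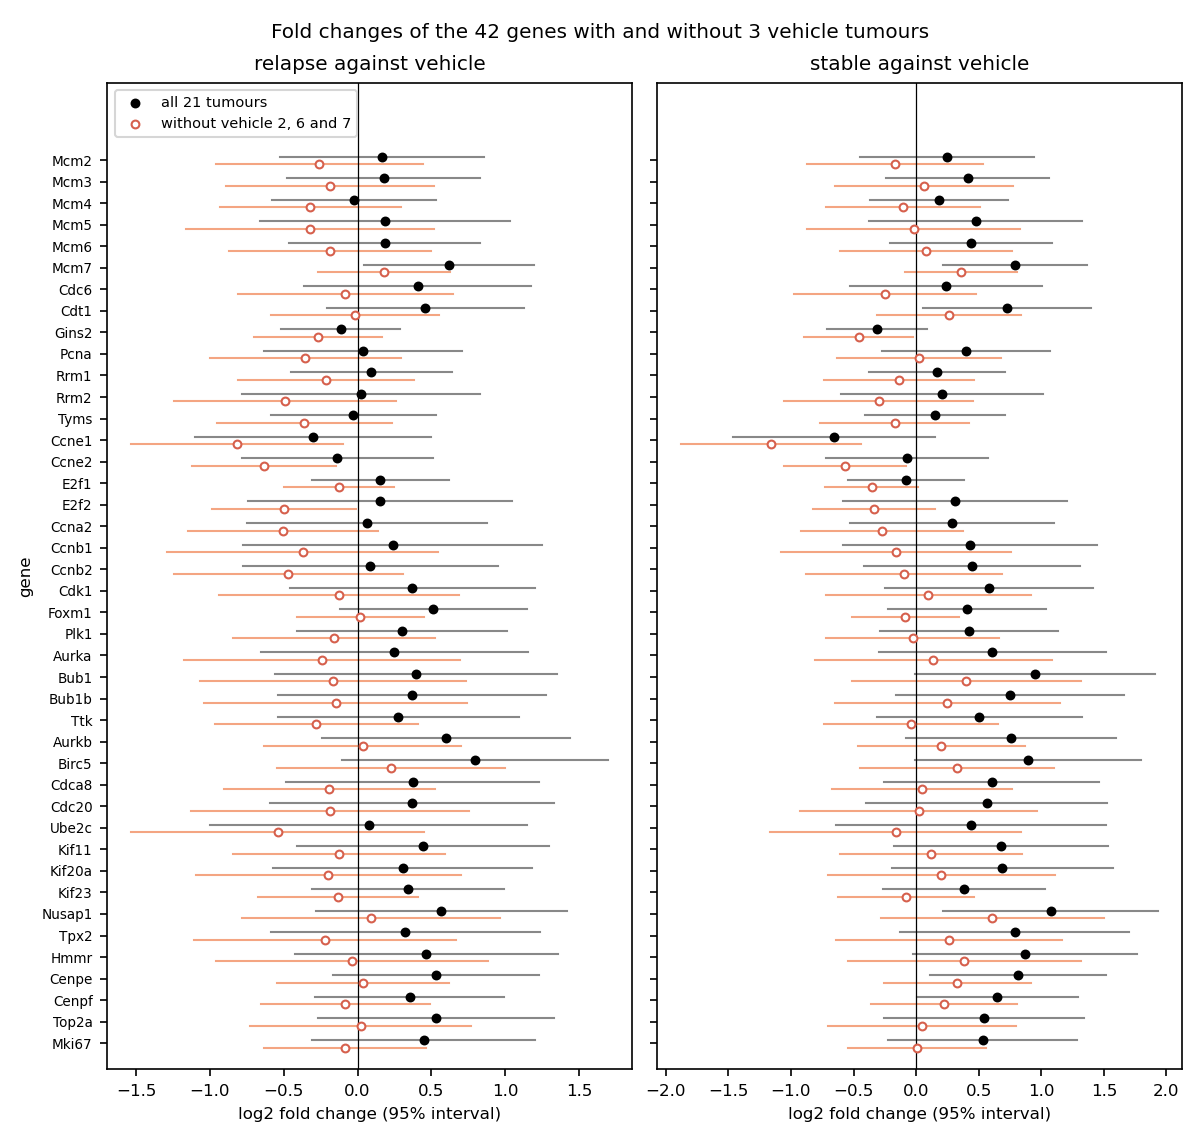
Log2 fold change of each of the 42 genes with its 95% interval, for relapse against vehicle (left) and stable against vehicle (right), from all 21 tumours (filled points) and without vehicle 2, 6 and 7 (open points). Leaving out these 3 tumours moves the points to the left, to a median of -0.19 for relapse and 0.01 for stable, and Ccne1 lies farthest to the left in both panels.

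Both comparisons turned on vehicle 2, 6 and 7. Without them 0 of 42 genes passed in edgeR for relapse against vehicle, against 3.28% of 16081 genes, and 0 for stable against vehicle, against 5.27%. The median log2 fold change of relapse against vehicle changed sign, to -0.19, with 35 of 42 genes negative, and that of stable against vehicle was 0.01, with 22 positive. The genes that passed without adjustment were then cyclin E genes, E2f2 and Gins2, all with lower fitted levels in treated tumours. For relapse against vehicle 3 passed at an unadjusted p under 0.05, against 21.1% of all genes: Ccne2 at -0.63 ± 0.23 (edgeR adjusted p = 0.125), Ccne1 at -0.82 ± 0.34 (0.179) and E2f2 at -0.50 ± 0.23 (0.229). For stable against vehicle 3 passed, against 22.9%: Ccne1 at -1.16 ± 0.34 (adjusted p = 0.0557), Ccne2 at -0.57 ± 0.23 (0.156) and Gins2 at -0.46 ± 0.21 (0.190). Ccne1 then averaged 7.08 ± 3.45 CPM in relapse and 5.54 ± 2.40 CPM in stable tumours (mean ± SD, n = 7 each), against 12.5 ± 2.04 CPM in the 4 vehicle tumours. Ccne2 averaged 11.5 ± 2.31 CPM in relapse and 11.97 ± 3.80 CPM in stable tumours, against 17.9 ± 2.68 CPM in vehicle. Against these 4 tumours, Ccne1 in stable was the only one of the 42 free of overlap in that comparison, as 3.69% of all genes were in the lower direction, and Ccne2 in relapse the only one in the other, against 4.34%. In the higher direction 0 of the 42 were free of overlap in either comparison, against 4.23% of all genes in relapse and 3.59% in stable. Mki67 was at -0.08 with an interval of -0.63 to 0.46 for relapse and at 0.01 with an interval of -0.54 to 0.56 for stable. The interval lay within 2-fold for 27 and 29 of the 42 genes. The tumours left out are low in these genes, so that the comparison without them has a higher vehicle level by construction.

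Relapse against stable compares the treated groups with each other. Of the 42 genes, 37 had a lower fitted level in relapse tumours, most of all Bub1, Nusap1 and Tpx2, and 0 passed the test. In edgeR 0% of the 15792 genes were called, and at an unadjusted p under 0.05 0 of the 42 passed, against 4.76% of all genes. DESeq2 called 0 of the 42, against 0.038% of all genes, and passed 0 without adjustment, against 5.88%. Limma voom called 0, against 0% of all genes, and passed 0 without adjustment, against 4.9%. Without vehicle 2, 6 and 7, which enter only through the shared spread, edgeR called 0 and passed 0 without adjustment, against 6.67%. The median log2 fold change was -0.21, beside -0.01 over all genes tested. Bub1 had 27.2 ± 6.62 CPM in relapse and 39.9 ± 31.4 CPM in stable tumours (mean ± SD, n = 7 each), at -0.55 ± 0.46, and Nusap1 was at -0.51 ± 0.41, Tpx2 at -0.46 ± 0.44 and Pcna at -0.36 ± 0.32 (edgeR adjusted p = 0.99 for each). Ccne1 was at 0.35 ± 0.39 and E2f1 at 0.23 ± 0.22 (adjusted p = 0.99). The interval lay within 2-fold for 22 of 42 genes, and that of Mki67 ran from -0.84 to 0.67. The direction rested on stable 1: without it the median was 0.11, and it was -0.37 without stable 5, -0.32 without stable 7 and -0.12 without relapse 1. In 0 of 42 genes were the groups free of overlap, against 0.0253% of all genes higher and 0.057% lower.

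Several tumours that share a title code stood far apart. The titles also hold a suffix of a digit and the letter L or R, which differs among tumours of the same code. What the suffix stands for is not given in the titles, and its part was not tested. Vehicle 2 had lower CPM than vehicle 1, which has the same code, in 42 of 42 genes, with a median difference of -1.82 in log2 CPM. Vehicle 6 and 7 share the code of vehicle 5 and differed from it by -1.97 (42 of 42 genes lower) and -1.44 (41 of 42 lower). Stable 5 has the code of relapse 5 and was lower in 42 of 42 genes, by -1.25, and stable 7 has that of relapse 6 and was lower in 37, by -0.30. Stable 1 was above stable 6, its partner in code, in 41 genes, by 1.33. For Mki67 the values were 214 CPM in vehicle 2 and 1098 CPM in vehicle 1, 151 and 387 CPM in vehicle 6 and 7 and 900 CPM in vehicle 5, and 354 CPM in stable 5 and 836 CPM in relapse 5. By contrast stable 2, 3 and 4, which share a code, had scores of 0.33, 0.25 and 0.44.

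Other genes of the cell cycle were read from 5 lists set by function. Of 52 other mitosis genes, 3 rose in stable against vehicle tumours in edgeR and 0 fell, where 15.1% of all genes were called: Ndc80 and Cenpk, of the outer and inner kinetochore, and Kif18a, a kinesin that damps chromosome movement. Ndc80 had 57.6 ± 44.9 CPM in stable and 20.04 ± 10.6 CPM in vehicle tumours (mean ± SD, n = 7 each), a log2 fold change of 1.52 ± 0.42 (adjusted p = 0.0223). Cenpk was at 1.09 ± 0.34 (adjusted p = 0.0355) and Kif18a at 0.93 ± 0.30 (adjusted p = 0.0392). DESeq2 called 5 of the 52, all higher, against 20.6% of all genes, and limma voom 4, all higher, against 11.2%. In the order Ndc80, Cenpk and Kif18a, the edgeR calls were lost without vehicle 2, 6 and 7, at adjusted p = 0.171, 0.248 and 0.266, and with counts summed per title code, at 0.192, 0.241 and 0.211. They were also lost with only the 2 groups compared, at 0.0714, 0.088 and 0.104, and with the replicate number as a block, at 0.0569, 0.0629 and 0.0775. Those of Cenpk and Kif18a were also lost without stable 1, 2, 3 or 4 or vehicle 2, 6 or 7, and that of Cenpk without stable 6. The adjusted p was then 0.0502 to 0.0758 for Cenpk and 0.0537 to 0.0855 for Kif18a. With no filter on low counts, that of Kif18a was lost at 0.0507. In relapse against vehicle 1 of the 52 fell in edgeR, Ckap5, a microtubule polymerase, at -0.40 ± 0.13 (adjusted p = 0.0428), and 0 rose. In that comparison 11.2% of all genes were called. DESeq2 and limma voom each called 1, against 16.4% and 8.14% of all genes. The call of Ckap5 was lost without relapse 1, 3, 5, 6 or 7, stable 2, 3, 4 or 6, or vehicle 1, 2, 6 or 7, at 0.0511 to 0.115. It was also lost with the block at 0.0683, with counts summed per title code at 0.146, and without vehicle 2, 6 and 7 at 0.236. With RLE or upper quartile scaling factors it was at 0.0503 and 0.0504, and with no filter on low counts at 0.0542. The median log2 fold change of the 52 was 0.35 in relapse and 0.61 in stable against vehicle, and -0.14 and 0.16 without vehicle 2, 6 and 7.

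Of 36 other replication genes, 0 passed in any comparison in edgeR, and at an unadjusted p under 0.05 there were 5 in relapse against vehicle, against 27.5% of all genes, 9 in stable against vehicle, against 31.1%, and 0 in relapse against stable, against 4.76%. In stable against vehicle DESeq2 called 2 of the 36, against 20.6% of all genes, and limma voom 0, against 11.2%. Both called 0 in relapse against vehicle, against 16.4% and 8.14% of all genes, and 0 in relapse against stable. The lowest p were those of Rnaseh2a, a subunit of a nuclease that removes RNA from DNA, at 0.39 ± 0.14 in relapse against vehicle (adjusted p = 0.0858), and of Gins4, a helicase subunit, at 0.56 ± 0.19 in stable against vehicle (adjusted p = 0.056). Of 17 genes of the S phase checkpoint and fork repair, 1 fell and 0 rose in stable against vehicle in edgeR. In that comparison 15.1% of all genes were called. DESeq2 called 1 lower and 1 higher, against 20.6% of all genes, and limma voom 1 lower, against 11.2%. Most of the list went up: 15 of 17 log2 fold changes were positive, with a median of 0.53. At an unadjusted p under 0.05, 9 of the 17 passed in edgeR, against 31.1% of all genes. Without vehicle 2, 6 and 7, 12 were positive with a median of 0.22, and 1 passed without adjustment, against 22.9%. Msh6, of mismatch repair, had 64.3 ± 7.81 CPM in stable and 83.9 ± 15.3 CPM in vehicle tumours (mean ± SD, n = 7 each), at -0.38 ± 0.11 (adjusted p = 0.0306). Its log2 fold change was -0.51 without vehicle 2, 6 and 7 (adjusted p = 0.00781), and the call was lost with the block (0.0739), with counts summed per title code (0.0957), with only the 2 groups compared (0.0898), with upper quartile factors (0.0751) and without stable 6 or 7 or vehicle 3 or 7 (0.0547 to 0.0661). In relapse against vehicle 0 of the 17 passed in edgeR, and 2 did so at an unadjusted p under 0.05, against 27.5% of all genes. DESeq2 and limma voom called 0, against 16.4% and 8.14%. Rad54l, of homologous recombination, had the lowest p in edgeR, at 0.70 ± 0.32 (adjusted p = 0.165).

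Of 15 genes that brake the cycle or control entry into mitosis, 2 rose and 0 fell in each treated group in edgeR, a share near that of all genes called, 11.2% in relapse and 15.1% in stable against vehicle. DESeq2 also called 2 in each, where 16.4% of all genes were called in relapse and 20.6% in stable against vehicle. Limma voom called 2 in each as well, against 8.14% and 11.2%. Ccng2, cyclin G2, a cyclin linked to arrest, had 99.9 ± 14.6 CPM in relapse and 58.9 ± 10.9 CPM in vehicle tumours (mean ± SD, n = 7 each), with a log2 fold change of 0.76 ± 0.19 (edgeR adjusted p = 0.0152), and 132 ± 55.5 CPM in stable tumours, at 1.17 ± 0.19 (adjusted p = 0.000959). All relapse tumours (83.8 to 126 CPM) and all stable tumours (81.9 to 253 CPM) lay above all vehicle tumours (38.6 to 74.4 CPM). Of all genes tested, 1.53% were free of overlap in this direction in relapse and 1.56% in stable against vehicle. Cdkn1b, the CDK inhibitor p27, had 179 ± 19.96 CPM in relapse and 196 ± 32.5 CPM in stable tumours, against 120 ± 21.5 CPM in vehicle tumours, with log2 fold changes of 0.58 ± 0.13 (adjusted p = 0.0076) and 0.71 ± 0.13 (adjusted p = 0.00189). All relapse tumours and 6 of 7 stable tumours lay above all vehicle tumours; stable 1, at 125 CPM, lay below the highest vehicle tumour, at 147 CPM. In stable against vehicle both calls held in all 30 alternatives. In relapse against vehicle Cdkn1b was at 0.53 (adjusted p = 0.0524) without vehicle 2, 6 and 7, and Ccng2 at 0.62 (0.128), and with counts summed per title code Ccng2 was at 0.0594. Without vehicle 2, 6 and 7, Cdkn1b was at 0.65 (adjusted p = 0.0164) and Ccng2 at 1.04 (0.017) in stable against vehicle.

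Of 17 RB, E2F and MuvB regulators, 1 fell in relapse against vehicle in edgeR and 0 rose, where 11.2% of all genes were called. DESeq2 called 1, against 16.4% of all genes, and limma voom 0, against 8.14%. Rb1, the retinoblastoma protein that holds E2F factors back, had 300 ± 66.3 CPM in relapse and 576 ± 242 CPM in vehicle tumours (mean ± SD, n = 7 each), at -0.94 ± 0.28 (edgeR adjusted p = 0.0318). The vehicle mean without vehicle 2, 6 and 7 was 419 ± 120 CPM (n = 4), the log2 fold change -0.47 and the adjusted p 0.348, and the call was also lost with the block (0.0674), with limma voom (0.0589) and without relapse 1, 2 or 5 or vehicle 2 or 7 (0.0554 to 0.0719). In stable against vehicle 0 of the 17 passed in edgeR, and 2 did so at an unadjusted p under 0.05, against 31.1% of all genes. DESeq2 called 1, against 20.6%, and limma voom 0, against 11.2%. Rb1 was at -0.76 ± 0.27 (edgeR adjusted p = 0.064). Without vehicle 2, 6 and 7, Rbl2, a pocket protein of resting cells, rose in stable against vehicle by 0.65 ± 0.15 (edgeR adjusted p = 0.0208). Tfdp2, a partner of E2F factors, rose by 0.39 ± 0.10 (adjusted p = 0.0354). Haspin, a mitotic histone kinase from the list of other mitosis genes, fell by 0.64 ± 0.18 (adjusted p = 0.0489). They were 2 of the 17 and 1 of the 52 other mitosis genes, where 5.27% of all genes were called. In the fit of all 21 tumours Rbl2, Tfdp2 and Haspin were at 0.16, 0.07 and -0.09 (adjusted p = 0.589, 0.786 and 0.869). In relapse against stable 0 genes of the 5 lists passed in edgeR, DESeq2 or limma voom. At an unadjusted p under 0.05 there were 2 in edgeR, both in the list of brakes, where 4.76% of all genes passed. Btg2, an antiproliferative gene, was lowest at -0.79 ± 0.29 (adjusted p = 0.99).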

How the data were processed

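RNA was sequenced from 21 frozen mammary tumours, as single-end reads of stranded poly-A libraries per the labels' protocols. The authors deposited whole-number read counts per gene, not normalized; STAR 2.5.2a, SAMtools 1.3.1, Picard 2.9.2, edgeR and the build mm10 are named in the submitters' processing notes, and for the annotation, strand setting and treatment of multiply mapped reads no statement was found, so close paralogs and antisense genes could share reads. Of the 24028 rows, 10202 held an extra leading cell and were read from their last 25 cells; 14 had no symbol. Groups come from the labels.

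Genes were filtered by filterByExpr, scaled by TMM (factors of 0.880 to 1.06) and tested in R 4.3.3 on all 21 tumours by edgeR 4.0.16 (quasi-likelihood F test), with Benjamini-Hochberg adjustment over all genes tested and a threshold of 0.05. The standard error is the log2 fold change over the root of F. Log2 CPM used a prior count of 2. Alternatives were DESeq2 1.42.0, limma 3.58.1 (voom, title code as a random effect), other scaling factors, no filter, the 2 groups compared alone, a replicate block, counts summed per title code, each tumour left out, and vehicle 2, 6 and 7 left out. The edgeR test was checked on simulated counts. All tumours were treated as separate samples: the closest pair, stable 2 and 3, differed by a chi-square of 18.6 per degree of freedom.

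The 42 genes and all lists were chosen with earlier results of these data known. Values are given for 12 set genes and the 4 of lowest p in each comparison, and from each list for up to 4 called genes or the 1 of lowest p. Ccne2, E2f2, Gins2, Cdc6, Cenpf, and Rbl2, Tfdp2 and Haspin without vehicle 2, 6 and 7, were named after their values were seen. No protein sequences were used here.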

Additional observations from a re-analysis of the deposited data

Results flagged for a closer look

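In 16 of the 72 groups of 7 tumours examined (20 genes and 4 scores in 3 groups), 1 tumour stood apart from the other 6 by more than Dixon's 95% critical share of the group's range; chance alone gives this in about 1 in 20 groups, and the genes are not independent of each other. Stable 1 was the high tumour in 9 of them: Tpx2 at 255 CPM, Nusap1 at 148 CPM, Mcm7 at 134 CPM, Mcm5 at 121 CPM, Bub1 at 107 CPM, Mcm2 at 96.3 CPM, Cdk1 at 77.3 CPM, Ccnb1 at 75.9 CPM and Plk1 at 56.6 CPM. Relapse 1 was the low tumour in 7: Mki67 at 505 CPM, Mcm7 at 45.7 CPM, Mcm5 at 18.6 CPM, Mcm2 at 18.2 CPM, and the scores of all 42 genes at -0.56, of the S phase genes at -0.67 and of the G2 and mitosis genes at -0.55.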

How the results depend on the processing

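For relapse against vehicle and relapse against stable, 0 of the 42 genes were called in any of the 30 alternatives. For stable against vehicle the count was 2 with DESeq2 and 1 with limma voom, and 0 to 2 with 1 tumour left out; the cause was not tested. The median log2 fold change of the 42 genes ranged from 0.16 to 0.44 for relapse against vehicle, 0.16 to 0.64 for stable against vehicle and -0.37 to 0.11 for relapse against stable with 1 tumour left out. Counts summed per title code gave 0.24, 0.26 and -0.06. With the replicate number as a block the medians were 0.49, 0.51 and -0.07 and 0 genes of the 42 were called in each comparison. The numbers share nothing in the labels: same-numbered tumours correlated at -0.24 to 0.12, -0.25 to 0.36 and -0.26 to 0.18, with 1 of 7 pairs over 0.1 in each, and 1, 1 and 0 of 7 tumours correlated best with their own number. With 7 tumours a group, the 95% interval reached a median of 0.80 (relapse against vehicle) to 0.81 (the other comparisons) to each side of the log2 fold change, which limits what could be detected.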
